A study of Mus musculus with 20 samples.

Results

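The 14-3-3 proteins are a family of small adaptor proteins, and the 6 genes described here are Ywhab, Ywhae, Ywhag, Ywhah, Ywhaq and Ywhaz. They were listed by symbol and matched to the Ensembl identifiers of the deposited read count table, in which they are 6 of 55401 genes. The list was chosen by values of these same libraries, since Ywhah is among the genes that the study lists as changed in SCA7 mice, so in the comparisons of SCA7 mice with WT mice the members' values are a description. No p is given for them there, and counts of members past the limits stand only beside the share of all genes. The seventh 14-3-3 gene, Sfn, was not in the list and had 38 to 93 reads in a library.

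RNA was sequenced from the cerebellum of 20 C57BL/6J mice, with a library for each cerebellum. SCA7 140Q/5Q knock-in mice, a model of Spinocerebellar ataxia type 7 in which 1 allele of Atxn7 carries an expanded CAG repeat and the other a normal one, received either AAV-shA4, whose short hairpin RNA is directed at CAG repeats (5 mice), or AAV-shSCR, with a scrambled hairpin (5 mice), and were labelled 25 weeks together with 4 untreated WT mice. A further 3 WT mice treated with AAV-shA4 and 3 untreated WT mice were labelled 9 weeks. The labels do not say whether weeks count age or time since injection. In the study's text the early time is counted from the injection, and for the late mice the time since injection given there is not the number on the label, so the weeks are used here as names of the groups. According to the methods, the vectors had the PHP.eB capsid, expressed the hairpin from the H1 promoter and eGFP from the CMV promoter, and were given into the retro-orbital sinus of young mice, and untreated mice received saline. The groups hold no SCA7 mice without vector and no WT mice given AAV-shSCR. For that reason the genotype and the vector cannot be told apart in the comparisons of SCA7 with WT mice, and at 9 weeks neither can the hairpin and the vector. Between 31465586 and 54570503 reads per library were counted on genes, and each member had at least 2777 reads in every library.

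14-3-3 proteins work as dimers that clasp short phosphorylated stretches of other proteins, called clients, and thereby change where a client sits in the cell, how active it is or how long it lasts. They are abundant in neurons. One of their best known clients in the cerebellum is ATXN1, the protein expanded in Spinocerebellar ataxia type 1, which is stabilised when a 14-3-3 protein binds it. The members are named by Greek letters: beta (Ywhab), epsilon (Ywhae), gamma (Ywhag), eta (Ywhah), theta (Ywhaq) and zeta (Ywhaz).

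The members are spread over 5 chromosomes of the GRCm38 build, and the pair on chromosome 5 lies far apart. Ywhah (ENSMUSG00000018965) occupies chr5:33018816-33027966 on the plus strand and Ywhag (ENSMUSG00000051391) chr5:135908409-135934616 on the minus strand. Ywhab (ENSMUSG00000018326) lies at chr2:163994960-164018588 (plus), Ywhae (ENSMUSG00000020849) at chr11:75732869-75765845 (plus), Ywhaq (ENSMUSG00000076432) at chr12:21390071-21417637 (minus) and Ywhaz (ENSMUSG00000022285) at chr15:36770770-36796929 (minus). Their coding sequences are 738 to 768 bases long. Ywhag and Ywhah were the most alike, with 78.9% of aligned coding bases identical, and Ywhae and Ywhag the least alike at 64.4%. The longest stretch that Ywhag and Ywhah share is 30 bases, gagcaggcggagcgctacgacgatatggcc, shorter than the 49 bases left of a read after trimming. No stretch of 49 bases was common to any pair of members, so a full-length read that matches exactly belongs to 1 member.

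Because the shA4 hairpin is directed at CAG repeats, the longest CAG run in any annotated transcript is shown here for 5 members, with 9 bases on either side and the run in capitals, read on the strand of the gene and without regard to reading frame. These 5 runs lie within coding sequence and hold 2 CAG each.
Ywhae: gagaataatCAGCAGcattgaaca
Ywhag: gagggtcatCAGCAGcatcgagca
Ywhah: acgagcgacCAGCAGgatgaagaa
Ywhaq: aatgtgatgCAGCAGagggggccg
Ywhaz: gagaaaaagCAGCAGatggctcga
In Ywhah the run is at chr5:33027163-33027168.

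Promoters of Ywhah, Ywhag, Ywhae and Ywhaq were matched by symbol among RefSeq promoter windows of GRCm38.p6, which is 4 of 6 members. The 250 bases before the start are shown for Ywhah, whose level differed most among the groups, and for Ywhag, its closest relative by sequence. Capitals mark the cAMP response element (TGACGTCA) and its half-site (TGACG, or CGTCA on the other strand).
Ywhah: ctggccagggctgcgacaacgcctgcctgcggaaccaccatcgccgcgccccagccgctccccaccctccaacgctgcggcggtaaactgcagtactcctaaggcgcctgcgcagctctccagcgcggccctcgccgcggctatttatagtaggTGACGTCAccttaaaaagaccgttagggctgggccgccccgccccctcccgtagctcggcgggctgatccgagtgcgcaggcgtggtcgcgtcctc
Ywhag: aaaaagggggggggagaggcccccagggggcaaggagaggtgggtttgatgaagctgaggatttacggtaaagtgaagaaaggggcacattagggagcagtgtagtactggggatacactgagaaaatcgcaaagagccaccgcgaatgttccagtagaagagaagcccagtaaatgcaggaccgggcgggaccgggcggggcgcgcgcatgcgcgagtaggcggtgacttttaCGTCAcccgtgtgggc
The first window is chr5:33018566-33018815 (plus) and the second chr5:135934642-135934891 (minus). The Ywhah window holds the full element, which 1.55% of 32851 windows of the same length hold. The Ywhag window holds 1 half-site. At least 1 half-site, on either strand and with those inside the full element included, was found in 17.8% of all windows. Neither the element nor the half-site was found in the windows of Ywhae and Ywhaq. These are matches of letters and no binding was measured.

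Normalised counts are given as CPM, the reads of a gene scaled to a common library size by the TMM method over all 20 libraries. Ywhah was measured at 363, 395, 393 and 382 CPM in the 4 untreated WT mice of 25 weeks. In the AAV-shSCR-treated SCA7 mice the values were 274, 267, 269, 252 and 273 CPM, and the 5 SCA7 mice given AAV-shA4 had 263, 275, 263, 262 and 263 CPM. Every SCA7 mouse was thus below every WT mouse, and the SCA7 groups overlapped with each other. At 9 weeks WT mice given AAV-shA4 had 423, 382 and 380.4 CPM of Ywhah and untreated WT mice 405, 379 and 400.2 CPM, and these groups overlapped as well. Over all 10 SCA7 libraries the range was 252 to 275 CPM, and over all 10 WT libraries 363 to 423 CPM.

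**Figure D1:**
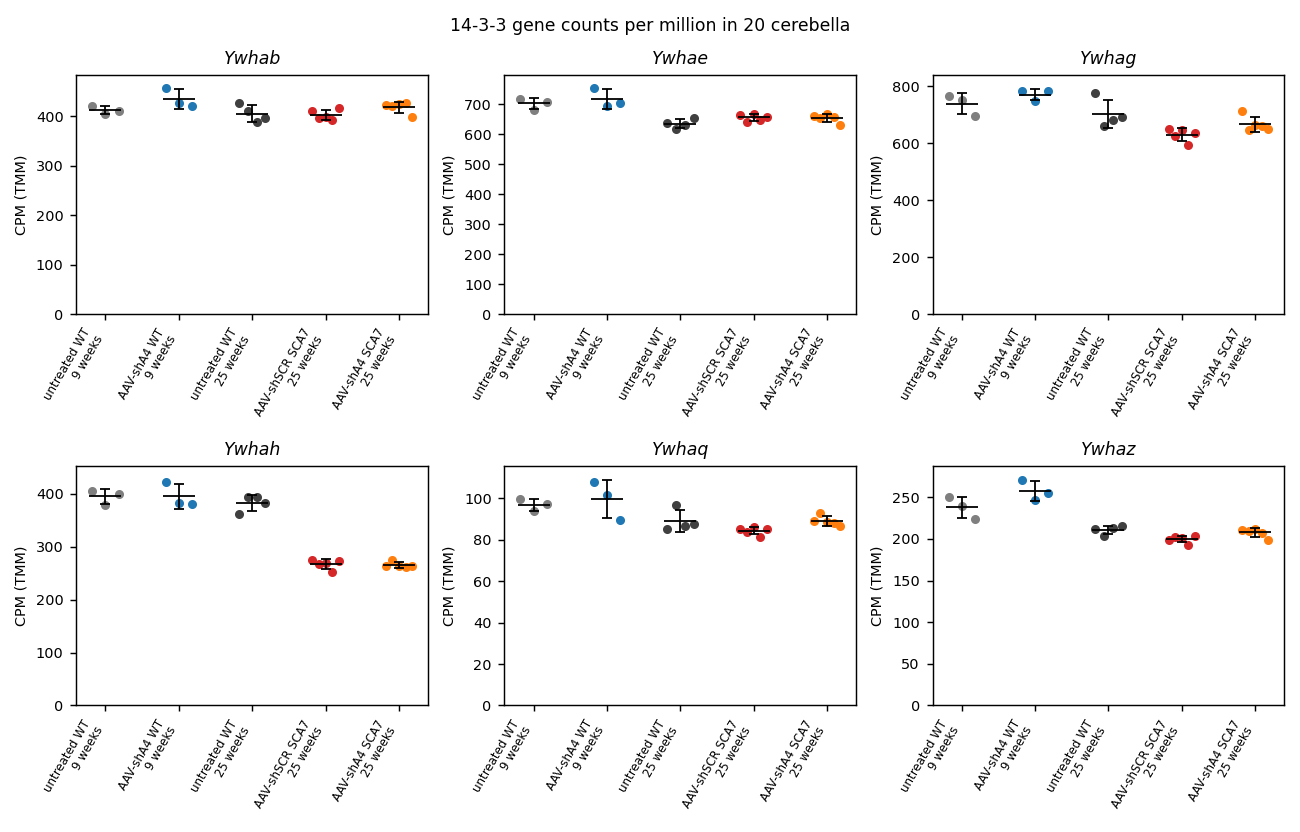
CPM of each 14-3-3 gene in the 20 cerebella, with 1 point per mouse, a horizontal bar at the group mean and error bars of 1 SD, and every vertical axis starting at 0. The 10 SCA7 mice lie at 252 to 275 CPM for Ywhah, below the 10 WT mice at 363 to 423 CPM, whereas for Ywhab and Ywhae the SCA7 mice lie within the range of the WT mice.

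Against untreated WT mice of 25 weeks, the mean of Ywhah in WT was 383 ± 14.8 CPM (SD, n = 4), beside 267 ± 8.77 CPM in AAV-shSCR-treated and 265 ± 5.28 CPM in AAV-shA4-treated SCA7 mice (SD, n = 5 each). The log2 fold changes fitted by edgeR were −0.52 (standard error 0.031) with AAV-shSCR and −0.53 (standard error 0.031) with AAV-shA4, which are changes of −30.2% and −30.8%. These values are among those the list was selected on. They share the WT libraries, so they are not independent of each other.

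The other members differed from WT by much less in the same comparisons. Ywhag, the gamma form, was at 651, 625, 647, 595 and 636 CPM with AAV-shSCR and at 776, 661, 681 and 694 CPM in WT, so that these groups did not overlap. With AAV-shA4 it was at 712, 648, 663, 659.6 and 649 CPM, overlapping with WT. The log2 fold changes of Ywhag were −0.16 (standard error 0.044) and −0.08 (standard error 0.044), and without the WT mouse at 776 CPM they were −0.11 and −0.03.

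Ywhaz, the zeta form, was at 199, 202, 201, 193 and 204 CPM with AAV-shSCR, at 211, 209.7, 212, 207 and 199 CPM with AAV-shA4 and at 212, 204, 213 and 216 CPM in WT. Its highest AAV-shSCR value and its lowest WT value are both 204 CPM after rounding, and the log2 fold changes were −0.08 and −0.02 (standard error 0.027 for each). For Ywhaq, the theta form and the member with the fewest reads, they were −0.08 and 0.00 (standard error 0.036 for each), and without the WT mouse at 96.9 CPM −0.04 and 0.04. Ywhab, the beta form, had −0.01 and 0.05 (standard error 0.032 for each). Ywhae, the epsilon form, whose product binds Ndel1 in migrating neurons, had 0.05 and 0.04 (standard error 0.027 for each). Ywhae was the single member that lay above WT with AAV-shSCR.

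Genes were called when their adjusted p from edgeR was under 0.05 and their fold change exceeded 1.3 in either direction. With AAV-shSCR, 1 of 6 members was called, Ywhah, among 597 of 14862 genes tested (4.02%), 2 passed the adjusted p alone (15.5% of all genes) and 3 did not overlap with WT (16.8% of all genes). With AAV-shA4, 1 of 6 members was called, again Ywhah, among 513 genes (3.45%), 1 passed the adjusted p alone (13.6%) and 1 did not overlap with WT (13.4%). For the 6 members the median log2 fold change was −0.08 in the AAV-shSCR and −0.01 in the AAV-shA4 comparison, beside 0.00 and 0.01 over all genes. As the list was chosen with these comparisons known, nothing is read from these counts.

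**Figure D2:**
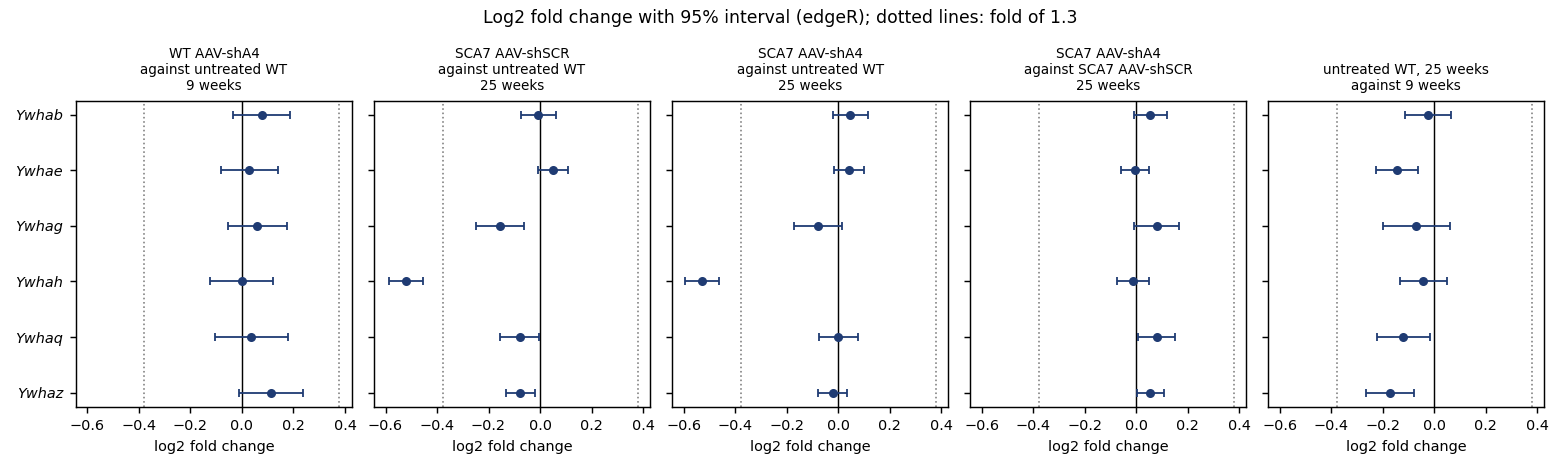
Log2 fold change of each member (horizontal axis) in the 5 comparisons (panels), with 95% intervals from edgeR and dotted lines at a fold of 1.3. Ywhah lies beyond the dotted line in both comparisons of SCA7 with WT mice, at −0.52 and −0.53, and the other members lie between the lines in every comparison.

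The effect of AAV-shA4 in SCA7 mice was assessed against AAV-shSCR-treated SCA7 mice, a comparison that uses the same SCA7 libraries as those above. For Ywhah the log2 difference was −0.01 (standard error 0.030), with a 95% interval of −0.07 to 0.05 and an adjusted p of 0.941 by edgeR's quasi-likelihood test. Since the list was chosen with Ywhah known to be changed in SCA7 mice, this p is not independent of that choice. In percent, the interval reaches from −5.02% to 3.62%, beside the fitted changes of −30.2% and −30.8% that set the SCA7 groups apart from WT.

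Ywhaq was at 88.9, 93.0, 88.7, 88.2 and 86.5 CPM with AAV-shA4 and at 85.2, 83.6, 86.0, 81.5 and 85.1 CPM with AAV-shSCR, so that the groups did not overlap. An exact two-sided permutation test gave p = 0.00794, the smallest p that 5 against 5 mice allow. This p follows from the lack of overlap and is not adjusted over the 6 members. The same permutation test gave p of 0.0317 (Ywhag) to 0.762 (Ywhae) for the other members. The log2 difference of Ywhaq was 0.08 (standard error 0.034), with an adjusted p of 0.584 over all genes in edgeR's test, and it did not pass. Of all genes tested, 1.49% did not overlap in this comparison.

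The gamma, zeta and beta forms had log2 differences of 0.08 (Ywhag, standard error 0.042), 0.06 (Ywhaz, standard error 0.025) and 0.05 (Ywhab, standard error 0.030), and Ywhae −0.01 (standard error 0.026). Their adjusted p in edgeR's test was 0.597 to 0.971. No member was called, and none of all 14862 genes was (0.00%, with or without the fold limit), although 1222 genes had an unadjusted p under 0.05, Ywhaq and Ywhaz among them, and DESeq2 called 5 genes. The median of the members was 0.05 and that of all genes 0.00.

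Atxn7, the gene whose repeat the hairpin is directed at, was at 48.1 ± 2.70 CPM with AAV-shA4 and 49.5 ± 2.92 CPM with AAV-shSCR (SD, n = 5 each), a log2 difference of −0.04 (standard error 0.046, adjusted p = 0.842 in edgeR's test), with the reads of both alleles counted together. The study measured the protein by western blot at an earlier time and reports that AAV-shA4 lowered mutant ATXN7 in the cerebellum. The RNA values given here do not measure that protein.

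In WT mice at 9 weeks, AAV-shA4 was compared with no treatment to see whether the vector and hairpin alone move gene expression. Ywhaz had the largest difference of the members, at 270.3, 247 and 255 CPM with AAV-shA4 and 249.8, 239.8 and 224 CPM without, groups that overlapped. Its log2 difference was 0.11 (standard error 0.056, adjusted p = 0.491 in edgeR's test).

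Ywhab differed by 0.08 (standard error 0.050), Ywhag by 0.06 (standard error 0.052), Ywhaq by 0.04 (standard error 0.065), Ywhae by 0.03 (standard error 0.051) and Ywhah by 0.00 (standard error 0.056) on the log2 scale. Adjusted p values of these members were 0.594 to 0.994 in edgeR's test. For Ywhah the 95% interval was −0.12 to 0.12. No member was called and none passed the adjusted p alone, beside 0.0543% and 0.0679% of the 14733 genes tested, and no member separated the groups, beside 16.0% of all genes. An exact permutation test of 3 against 3 mice cannot go below p = 0.1. Of the members, 5 were higher with AAV-shA4, with a median log2 difference of 0.05 beside 0.00 over all genes. The library totals did not overlap between these groups, at 36245752 to 39208298 reads with AAV-shA4 and 47455917 to 49212593 reads without, and neither did 3 of the 6 sums of cell type markers. With AAV-shA4 the summed level was lower for oligodendrocytes (7769 to 8107 CPM beside 8454 to 8743 CPM), lower for interneurons and unipolar brush cells (1464 to 1481 CPM beside 1489 to 1568 CPM) and higher for Bergmann glia and astrocytes (5470.5 to 5730.5 CPM beside 5106 to 5295 CPM), with no marker called. The part of depth or markers in the differences was not tested.

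The effect of AAV-shA4 in SCA7 mice at 25 weeks was set against its effect in WT mice at 9 weeks in 1 fit of all libraries, with AAV-shSCR as the control in the first and no treatment in the second. The effects differed by −0.06 (Ywhaz) to 0.04 (Ywhaq) on the log2 scale, and the adjusted p of the difference was 0.817 to 0.978 for the 6 members in edgeR's test. For Ywhah this fit holds the SCA7 libraries whose values were known when the list was chosen.

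Untreated WT mice of 25 weeks were compared with those of 9 weeks. The sources used here do not say whether both sets of mice were collected and sequenced together. They name the WT mice of 25 weeks as males and give no sex for those of 9 weeks. Any such difference cannot be told apart from time. Of all genes, 5.14% were called in this comparison. Of 15 oligodendrocyte markers 7 were called lower at 25 than at 9 weeks. Their list had summed levels of 8454 to 8743 CPM at 9 weeks and 6024 to 7125 CPM at 25 weeks. Granule cell markers had 2 of 15 called lower and sums of 9734 to 10822 CPM and 8147 to 9640.4 CPM. Microglia markers had 2 of 15 called higher and 1 called lower and sums of 259 to 275 CPM and 297 to 337 CPM. Each of these 3 sums did not overlap between the groups. Of 14 markers of Bergmann glia and astrocytes 1 was called lower. Of 15 markers of interneurons and unipolar brush cells 1 was called higher. The sums of both lists overlapped between the groups. No PC marker was called. The part of these markers in the values below was not tested. All 6 members were lower at 25 weeks, with a median log2 difference of −0.10 beside 0.01 over all genes. Ywhaz was at 212, 204, 213 and 216 CPM at 25 weeks and at 249.8, 239.8 and 224 CPM at 9 weeks, and the groups did not overlap. Its log2 difference was −0.17 (standard error 0.042, adjusted p = 0.0164 in edgeR's test). Ywhae was at 637, 619, 631 and 656 CPM at 25 weeks and at 718, 683 and 709.7 CPM at 9 weeks, again without overlap, a log2 difference of −0.14 (standard error 0.036, adjusted p = 0.0191 in edgeR's test).

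Both differences were smaller than the fold limit, so no member was called, beside 5.14% of 14875 genes. The 2 members that passed the adjusted p alone compare with 23.0% of all genes, and the 2 that did not overlap with 33.7%. Ywhaq (−0.12, standard error 0.046, adjusted p = 0.0843), Ywhag (−0.07, standard error 0.059, adjusted p = 0.426), Ywhah (−0.04, standard error 0.041, adjusted p = 0.486) and Ywhab (−0.02, standard error 0.040, adjusted p = 0.700) did not pass in edgeR's test. The adjusted p of Ywhae rose to 0.0736, 0.0501 or 0.0554 without replicate 1 of 9 weeks, replicate 2 of 25 weeks or replicate 3 of 25 weeks, and that of Ywhaz to 0.0656 or 0.0547 without replicate 1 or 2 of 9 weeks. Without replicate 2 of 25 weeks, the highest Ywhaq value of that group (96.9 CPM), the adjusted p of Ywhaq was 0.0179.

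Levels of different genes were compared only per length, as reads per kilobase (RPK) after division by DESeq2 size factors and by the median transcript length of the gene. In untreated WT mice of 25 weeks, Ywhae was the most abundant member at 33946 ± 855 RPK (SD, n = 4), followed by Ywhag at 17208 ± 1266, Ywhaz at 13241 ± 324, Ywhah at 11314 ± 417, Ywhab at 8269 ± 364 and Ywhaq at 1782 ± 104 RPK. No neighbours in this order overlapped between mice, and both groups of 9 weeks had the same order. In SCA7 mice Ywhah and Ywhab changed places. Ywhah was at 7870.4 ± 274 RPK and Ywhab at 8205 ± 213 RPK with AAV-shSCR (SD, n = 5 each), where they overlapped, and at 7813 ± 155 and 8525 ± 219 RPK after AAV-shA4 (SD, n = 5 each), where they did not.

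The share of Ywhah in the summed RPK of the 6 members was 13.2% ± 0.735 in WT mice of 25 weeks (SD, n = 4), 9.76% ± 0.164 with AAV-shSCR and 9.50% ± 0.265 with AAV-shA4 (SD, n = 5 each). The share of Ywhae was 39.6% ± 0.637 in WT and 43.4% ± 0.515 and 42.4% ± 0.304 in the SCA7 groups. The summed level was 85760.4 ± 1709 RPK in WT, 80653 ± 1797 RPK with AAV-shSCR and 82266 ± 1554 RPK with AAV-shA4. The order depends on the length used. The median lengths of Ywhae (738 bases) and Ywhaz (628 bases) are shorter than their coding sequences (768 and 738 bases), which raises their levels by that measure. By the longest transcript the share of Ywhae in WT of 25 weeks was 33.0% ± 0.669. With the longest transcript, Ywhaz lay below Ywhah and Ywhab in every group, Ywhab again lay above Ywhah in SCA7 mice only, and Ywhah had a share of 19.2% ± 1.02 in WT of 25 weeks, 14.5% ± 0.222 with AAV-shSCR and 14.1% ± 0.371 with AAV-shA4.

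**Figure D3:**
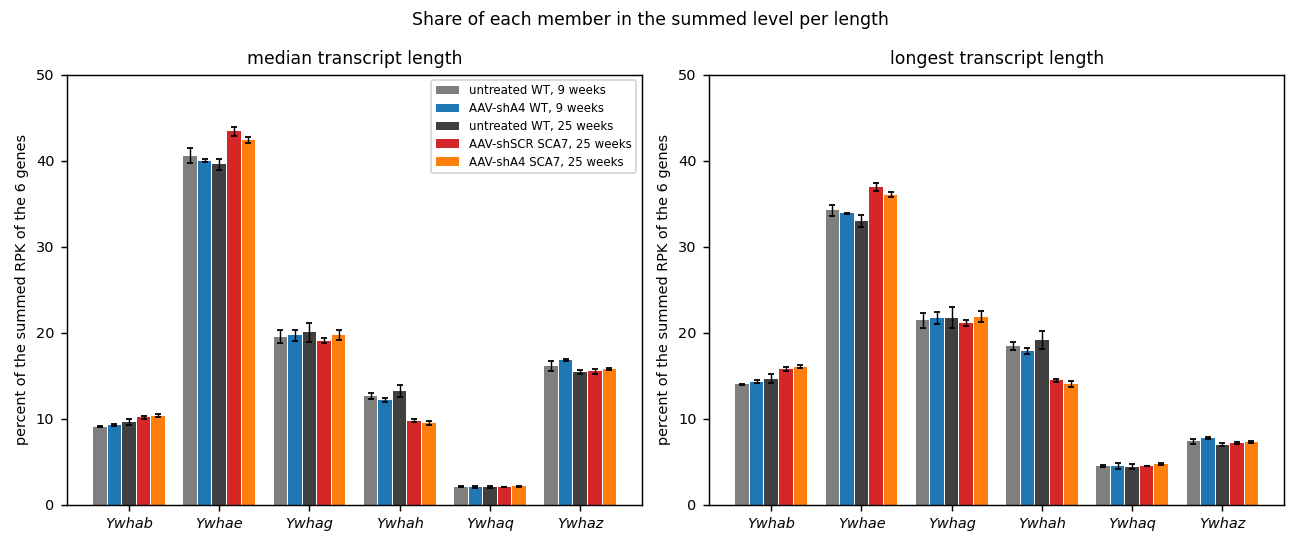
Share of each member in the summed RPK of the 6 genes, as bars of the group mean with error bars of 1 SD, using the median transcript length (left) or the longest transcript length (right). Ywhah takes 13.2% in untreated WT mice of 25 weeks and 9.76% and 9.50% in the SCA7 groups by the median length, and Ywhae takes the largest share in every group by both lengths.

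Some stretches of Ywhag, Ywhah, Ywhaq and Ywhaz also occur in transcripts of other genes, and reads from them could be counted on either or left out. For Ywhah, 324 of 3701 windows of 49 bases (8.75%) were shared, all with the pseudogene Gm12428, which had 0 to 13 reads in a library beside 8253 or more for Ywhah. For Ywhaz, 15.2% of windows were shared with 3 pseudogenes, of which Gm4202 had the most reads, 9 to 23 in a library. For Ywhaq the share was 29.0%, with 92 other genes, protein-coding genes and pseudogenes among them. The annotated Ywhaq pseudogenes had at most 10 reads. How many reads of a member were left out cannot be seen from the counts. Ywhab and Ywhae shared no window and Ywhag 0.215%.

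A list of 50 client proteins was written from general knowledge, and 49 of them were tested. In SCA7 mice with AAV-shSCR, 2 clients were called lower than in WT mice and 0 higher. Without the limits for a call, 25 clients had a negative and 24 a positive log2 fold change. Th, tyrosine hydroxylase, the enzyme whose activation gave these genes their name, was at 6.10 ± 1.04 CPM (SD, n = 5) beside 16.96 ± 3.27 CPM in WT (SD, n = 4), a log2 fold change of −1.47 (standard error 0.16). Zfp36, an RNA-binding protein that hastens decay of messenger RNA, was the other (−0.64, standard error 0.21), with groups that overlapped. With AAV-shA4, Th fell in the same way (−1.53, standard error 0.16) and was the single client called, 2.04% of the clients beside 3.45% of all genes. The median log2 fold change of the clients was −0.01 and 0.00, beside 0.00 and 0.01 over all genes.

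No client was called between the SCA7 groups or in WT mice of 9 weeks. Between 9 and 25 weeks, 4 clients were called in untreated WT mice, all higher at 25 weeks. These were Lrrk2 (a kinase, 0.74), Th (0.68), Kcnk9 (a potassium channel, 0.42) and Tbc1d1 (a regulator of glucose transporter traffic, 0.39), as log2 fold changes. They are 8.16% of the clients, beside 5.14% of all genes, and the groups overlapped for Th. Of 40 listed kinases that phosphorylate client sites, 39 were tested. Camk2a, a calcium-dependent kinase, and Sik1, a salt-inducible kinase, fell with AAV-shSCR (−0.67, standard error 0.16, and −0.65, standard error 0.20), and none was called in the other 4 comparisons. Those called were 4.08% of clients and 5.13% of kinases with AAV-shSCR, beside 4.02% of all genes.

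Some markers of cell types were lower in SCA7 than in WT mice, as Ywhah was. Of all genes, 4.02% were called with AAV-shSCR and 3.45% with AAV-shA4 against WT, in either direction. Of 20 markers of Purkinje cells (PCs), the output neurons of the cerebellar cortex, 13 were called lower with AAV-shSCR and 12 with AAV-shA4. Of these 20 markers, 20 and 19 had a negative log2 fold change, with medians of −0.46 and −0.43. Their summed level was 8489 to 9451 CPM with AAV-shSCR, 8603 to 9954 CPM with AAV-shA4 and 12099 to 13627 CPM in WT mice of 25 weeks, and no marker was at 0. In bulk tissue, fewer cells of a type and less RNA per cell cannot be told apart. Of 15 oligodendrocyte markers 6 and 4 were called lower, while 2 and 5 had a positive log2 fold change. The summed levels of the 15 were 4433 to 5311 CPM, 4930.3 to 5581 CPM and 6024 to 7125 CPM in the same order. No marker of granule cells (15 tested) or of Bergmann glia and astrocytes (14 tested) was called in these comparisons, although the summed markers of Bergmann glia and astrocytes were lower with AAV-shSCR without overlap (4562 to 4830.3 CPM, beside 5015 to 5161 CPM in WT). Beside these, 1 and 0 of 15 microglia markers were called lower, and 2 of 15 markers of interneurons and unipolar brush cells were called lower in each. Their part in the difference of Ywhah was not tested.

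Within groups, where the genotype does not enter, the level of each member was related to the summed PC marker level over the 20 libraries, after the group mean was subtracted from both on the log2 scale. Ywhah had Pearson's r = 0.70 (adjusted permutation p = 0.0131 over the 6 members, unadjusted 0.00219) and Spearman's rho = 0.64 (adjusted permutation p = 0.0234, unadjusted 0.00779). Without the 2 libraries farthest from the median of the marker level, r was 0.77 (n = 18). Among AAV-shA4-treated SCA7 mice, those lowest and highest in markers (−0.12 and 0.09) were alike in Ywhah (−0.01 each). In every other group the mouse lowest in markers was also the lowest in Ywhah. Ywhaq had r = 0.62 (adjusted permutation p = 0.0256, unadjusted 0.00853) and rho = 0.65 (adjusted permutation p = 0.0234, unadjusted 0.00738), and r = 0.61 without the same libraries. In the 14 libraries of 25 weeks alone, r was 0.60 for Ywhah and 0.59 for Ywhaq, and neither passed after adjustment (adjusted permutation p = 0.130 for both).

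The other members had r = 0.42 (Ywhab), 0.39 (Ywhae), 0.23 (Ywhaz) and −0.22 (Ywhag), with an adjusted permutation p of 0.205 to 0.396, and rho of 0.52, 0.43, 0.26 and −0.11, with an adjusted permutation p of 0.0899 to 0.673. Without the 2 libraries farthest from the median, r was 0.53, 0.79, 0.59 and 0.22, so the value for Ywhae and Ywhaz moved upward and that of Ywhag changed its sign. Both values of a point come from 1 library and share its scaling.

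**Figure D4:**
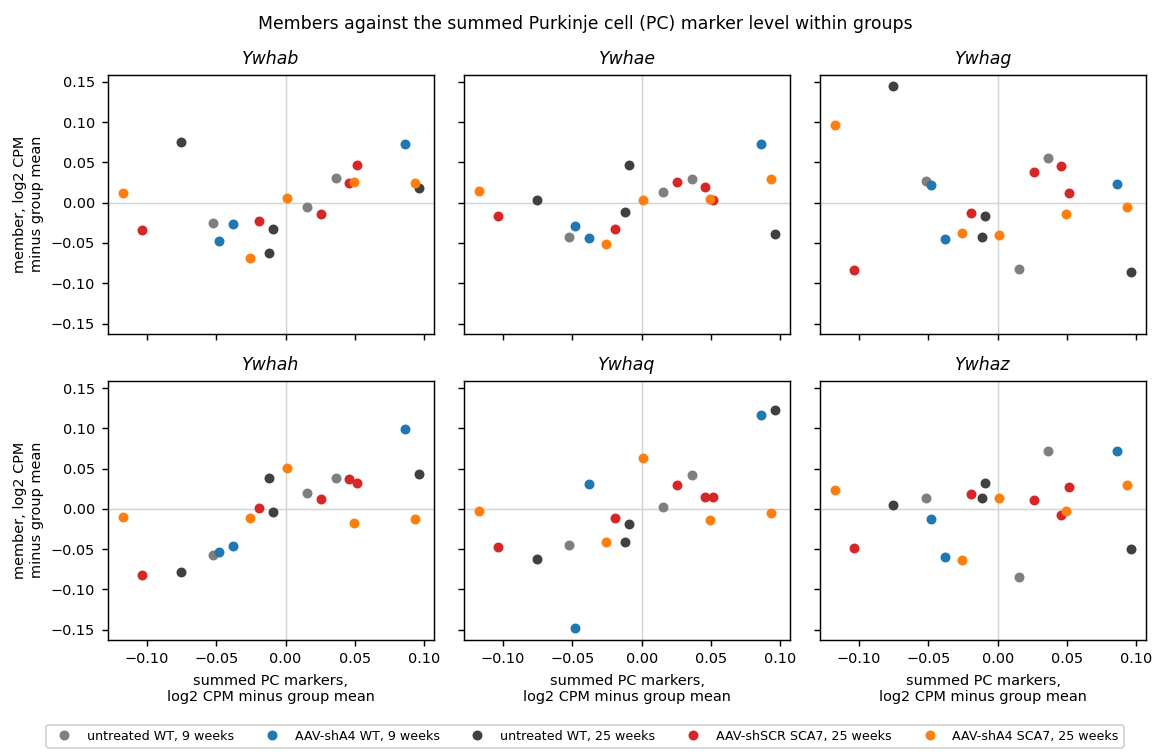
Level of each member (vertical axis) against the summed level of 20 PC markers (horizontal axis), both as log2 CPM minus the group mean, with 1 point per mouse coloured by group. For Ywhah the points run from lower left to upper right (r = 0.70), and for Ywhag they show no such run (r = −0.22).

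The genes most like Ywhah were taken as the 5 of 15094 genes with the smallest root mean square difference of centred log2 CPM over the 20 libraries. They were Icmt (0.052), which methylates the end of prenylated proteins, Gabbr2 (0.053), a subunit of the GABA-B receptor, Grik1 (0.056), a kainate receptor subunit, Rnf19b (0.057), an E3 ubiquitin ligase, and Inpp5a (0.058), which removes a phosphate from inositol trisphosphate, beside a median of 0.31 over all genes compared. Icmt was at 710.4 ± 31.2 CPM in WT mice of 25 weeks (SD, n = 4), beside 455 ± 22.6 and 466 ± 11.9 CPM in the AAV-shSCR and AAV-shA4 groups (SD, n = 5 each). Like Ywhah, all 5 had every SCA7 mouse below every WT mouse of 9 and 25 weeks. The likeness uses the same differences between groups by which the family was chosen and is a description.

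**Figure D5:**
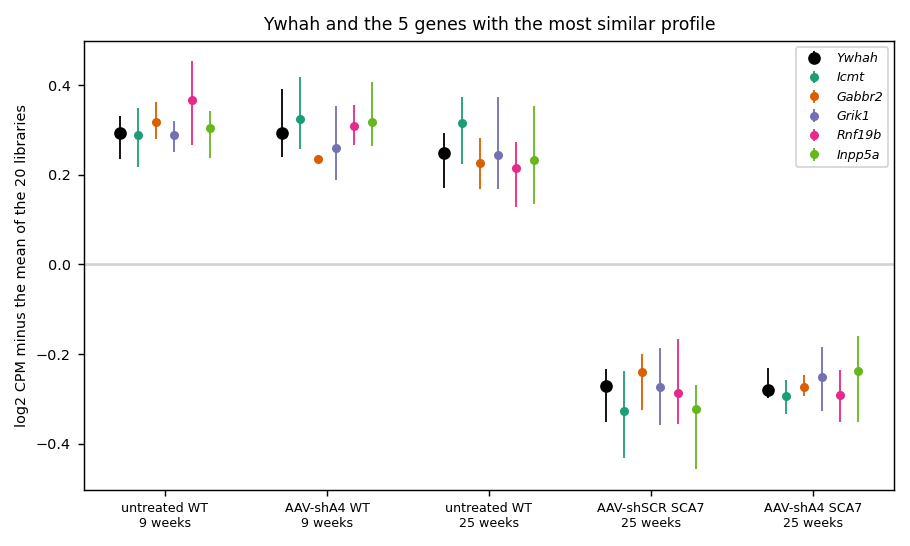
Group means of log2 CPM (vertical axis, minus the mean over the 20 libraries) of Ywhah and the 5 genes with the most similar profile in the 5 groups, with lines from the lowest to the highest mouse. All 6 genes lie above 0 in the 3 WT groups and below 0 in both SCA7 groups.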

How the data were processed

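RNA was sequenced from 20 mouse cerebella (1 per library) as stranded, polyadenylated libraries with single reads. The authors deposited counts, whole reads per gene, which they had not normalized. Their processing notes name bcl2fastq 2.20.0.422, cutadapt 1.10, Bowtie2 2.2.8, STAR 2.5.3a and HTSeq 0.6.1p1 and the mm10 build (GRCm38), and how the counting used strand is not given in the sources used here. Groups follow the labels. The members and all gene lists were chosen with earlier results of these data known.

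Symbols, types, positions and transcripts came from GENCODE release M21, which lacks 260 of the 55401 genes. Of the 21897 protein-coding genes, those that passed the filter were tested with edgeR 4.0.16 under R 4.3.3 (TMM, filterByExpr with minimum count 10 and minimum total 15, quasi-likelihood test, Benjamini-Hochberg adjustment over all genes tested). The fits held 6 libraries of 9 weeks (14733 genes tested), 14 of 25 weeks (14862) and 7 untreated WT libraries (14875). The study's own tool, DESeq2 (version 1.42.0 here), was an alternative, with other scalings, filters, gene sets and left-out libraries. Permutation tests used log2 of CPM plus 0.1, and the marker relations 100000 permutations within groups. The methods were tested on simulated data. One sequence is not reported here. Sequence features were computed in Python 3.11.15 with Biopython 1.88.

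Named genes are the 6 members, Sfn and annotated 14-3-3 pseudogenes, Atxn7, called genes of the client and kinase lists (all if at most 5, otherwise the 4 with the largest fold change) and the 5 genes most like the member whose group means differ most. Libraries of a group differed by more than counting noise (chi-squared per degree of freedom 4.72 to 22.7 over 32 pairs), so it is the variation among mice that sets the precision. Prkacg and Septin4 are the listed genes without a match by symbol.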

Additional observations from a re-analysis of the deposited data

Results flagged for a closer look

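Of 18 sets of member values (6 members in the 3 groups of 25 weeks), 3 held a mouse whose distance to its nearest neighbour took up most of the range of the group by Dixon's criterion, which chance exceeds in about 1 of 20 groups. All 3 were among AAV-shA4-treated SCA7 mice. Ywhah in replicate 2 was at 275 CPM, above the other 4 at 262 to 263 CPM, and still below every WT mouse. Ywhag in replicate 1 was at 712 CPM, above the others at 648 to 663 CPM. Ywhab in replicate 5 was at 399 CPM, below the others at 420.5 to 426 CPM. The mice differ from one gene to the next.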

How the results depend on the processing

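Under the alternatives tried, the number of members called did not change except when the fold limit was dropped, which gave 2 members for AAV-shSCR-treated SCA7 mice against WT and 2 for 25 against 9 weeks, with 2309, 2018 and 3419 genes for AAV-shSCR against WT, AAV-shA4 against WT and 25 against 9 weeks. The count of 8 genes in WT mice of 9 weeks was 50 with DESeq2, 20 with all 20 libraries in 1 fit, 26 without the filter on low counts, 16 over all genes of the table and 1 to 43 when 1 library was left out. DESeq2 gave 5 genes between the SCA7 groups. Leaving out 1 library gave 0 members called in WT of 9 weeks, 1 in each comparison of SCA7 with WT, 0 between the SCA7 groups and 0 between 25 and 9 weeks.

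The labels do not say that replicate numbers pair the mice, and the main fits did not pair them. Of 19 same-numbered pairs across groups, 3 had correlated deviations above 0.1 (range −0.22 to 0.54). The 2 largest, 0.54 and 0.26, were replicates 1 and 2 of AAV-shA4-treated SCA7 against WT mice of 25 weeks. With a replicate block the count in WT of 9 weeks was 37, and between 25 and 9 weeks the adjusted p of Ywhae and Ywhaz was 0.0667 and 0.0678 by edgeR.

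Of 420 refitted log2 fold changes of the members, 16 had the other sign, all where the reported value was at most 0.0367 in size. Ywhah in WT of 9 weeks was at 0.00284 with DESeq2 size factors and 0.00252 with DESeq2. Without 1 library, the values of that comparison ranged from −0.0537 to 0.0273 for Ywhah, from −0.0101 to 0.0558 for Ywhae and from −0.0242 to 0.106 for Ywhaq, and Ywhae between the SCA7 groups from −0.0132 to 0.00757. Against WT, Ywhab with AAV-shSCR ranged from −0.03 to 0.02 and Ywhaq with AAV-shA4 from −0.02 to 0.04. Ywhah against WT stayed between −0.54 and −0.50 with AAV-shSCR and between −0.56 and −0.52 with AAV-shA4 when 1 library was left out. The cause of these changes was not tested.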
